A study of Mus musculus with 24 samples.

Results

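Kidneys of wild-type mice fed an adenine diet for 14 days were compared with kidneys of mice kept on chow. The comparison takes the libraries titled as wild-type adenine and as CHOW controls, 6 and 4 of the 24 libraries in the series, with every gene that had enough reads. All mice of the knockout experiment came from a cross of ENPP1 fl/fl mice with CAG-ERCre mice, in which tamoxifen induces the recombination, and the wild-type group was CAG-ERCre negative. The labels do not give the genotype of the chow mice, nor whether wild-type and chow mice received tamoxifen, nor sex, age, strain or adenine dose. Each library was made from 400 ng of total kidney RNA with a strand-specific kit. The remaining groups are ENPP1 knockout mice on adenine (6 libraries) and, in a separate experiment, adenine-fed mice given an antibody to ENPP1 or control IgG (4 libraries each).

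Dietary adenine is a standard model of tubulointerstitial kidney disease. Xanthine dehydrogenase oxidises the excess adenine to 2,8-dihydroxyadenine, a poorly soluble purine that crystallises in the tubule lumen, obstructs nephrons and injures the epithelium. The surviving tubule cells lose their transport and metabolic genes, switch on injury and repair genes and proliferate, while leukocytes enter and matrix is laid down around the tubules.

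The libraries held 26203025 to 28209908 reads on chow and 21049722 to 24938806 on adenine, with 20.7 to 26.7% and 16.9 to 26.3% of them on mitochondrial genes. Between 19429 and 19658 genes had a read on chow and 20389 to 20753 on adenine. No library stood apart from its group: the first principal component held 86.4% of the variance among the 10 libraries and separated the diets, and the second held 3.03%. Nothing in the labels says how the mice were housed or processed in batches, so p-values measure the spread between these mice. The Y-linked transcripts Ddx3y and Eif2s3y had 0 to 14 reads in every chow, wild-type and knockout library and 3484 to 5194 in the IgG libraries. Kdm5d had 204 to 344 reads against 1518 to 2424, and Uty 21 to 138 against 1485 to 2282. No gene's level is therefore compared here between those experiments, and only the share of retained-intron transcripts is shown for both. In whole kidney RNA, fewer cells of a type and less RNA per cell cannot be told apart.

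Most of the transcriptome moved. Of 16959 genes tested, 7455 were higher on adenine (44.0%) and 6944 lower (40.9%) at an adjusted p under 0.05. Changes of at least 2-fold numbered 3954 upward (23.3%) and 3101 downward (18.3%), and 487 genes rose and 258 fell by at least 8-fold. The typical gene changed by 0.84 on the log2 scale in either direction, and in 12752 genes (75.2%) no adenine library overlapped any chow library. A lack of overlap given below for single genes is therefore what most genes showed. In 1063 genes (6.27%) the 95% interval of the change lay within 1.2-fold. Levels are given as CPM (reads of a gene scaled to a common library total) on edgeR's TMM scale, which sets the bulk of genes to no change, and mean ± SD is over n = 4 chow and n = 6 adenine libraries.

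The most abundant transcripts carried much of the loss. Of the 100 nuclear protein-coding genes with the highest mean TPM (transcript abundance scaled to a common total, a level per length) on chow, 98 were lower on adenine, 88 of them by at least 2-fold, and their share of all TPM went from 16.3% to 10.8%. Picking the 100 highest on adenine instead gave 80 lower and 18 higher, with 66 genes on both lists. The TMM factors were 0.717 to 0.741 on chow and 1.06 to 1.24 on adenine. Scaling to total reads alone moved the median gene up by 0.65 on the log2 scale and the upward share of calls from 51.8% to 75.1% (11119 higher and 3688 lower). On the TPM scale the median gene was higher by 0.99 on the log2 scale. Every rise and fall below is therefore relative to the bulk of genes, and a fall smaller than about 0.65 on the log2 scale has no fixed direction. On the TPM scale, where the median gene was higher by 0.99, falls somewhat above that size may have none either. Some larger falls also lost their call under total-read scaling, as given beside them. Of the genes given below as not passing the test, Bub1, Cd8a, Cdh6, Csf1r, Ier2, Scnn1a, Six2 and Synpo passed as higher under upper-quartile and under total-read scaling.

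**Figure D1:**
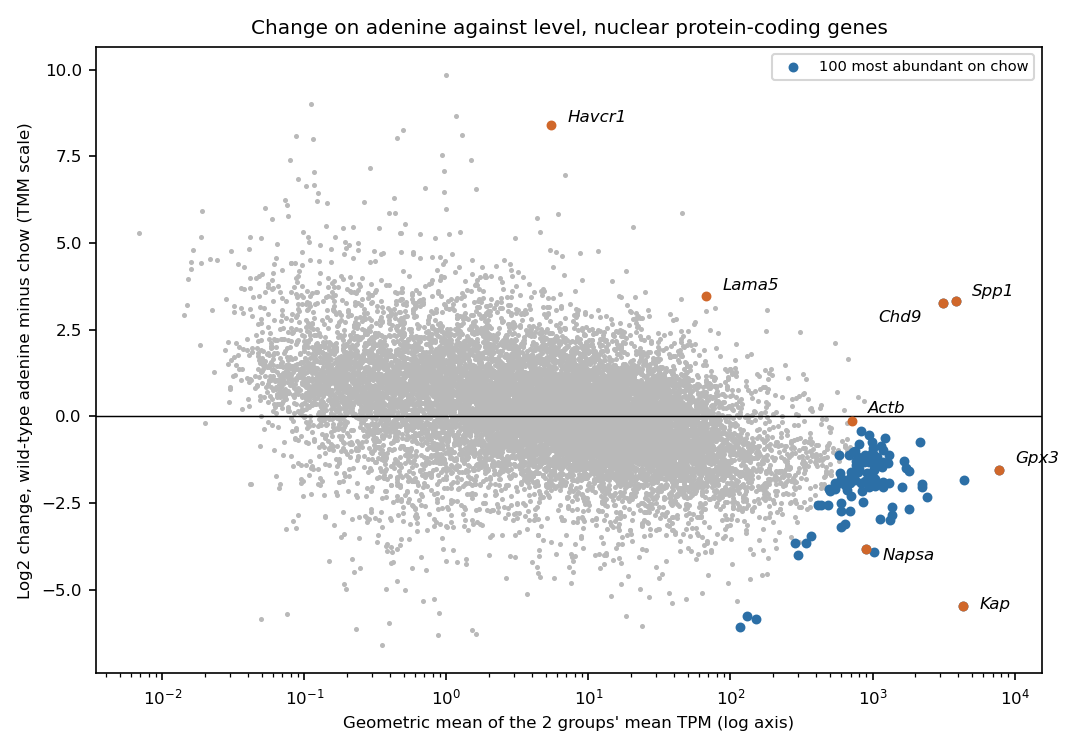
Log2 change on adenine against level for nuclear protein-coding genes tested, with the level as the geometric mean of the 2 groups' mean TPM on a log axis. The 100 genes most abundant on chow (blue) lie almost all below 0, Spp1 and Chd9 stand above 0 at the right, and named genes are in orange.

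**Figure D2:**
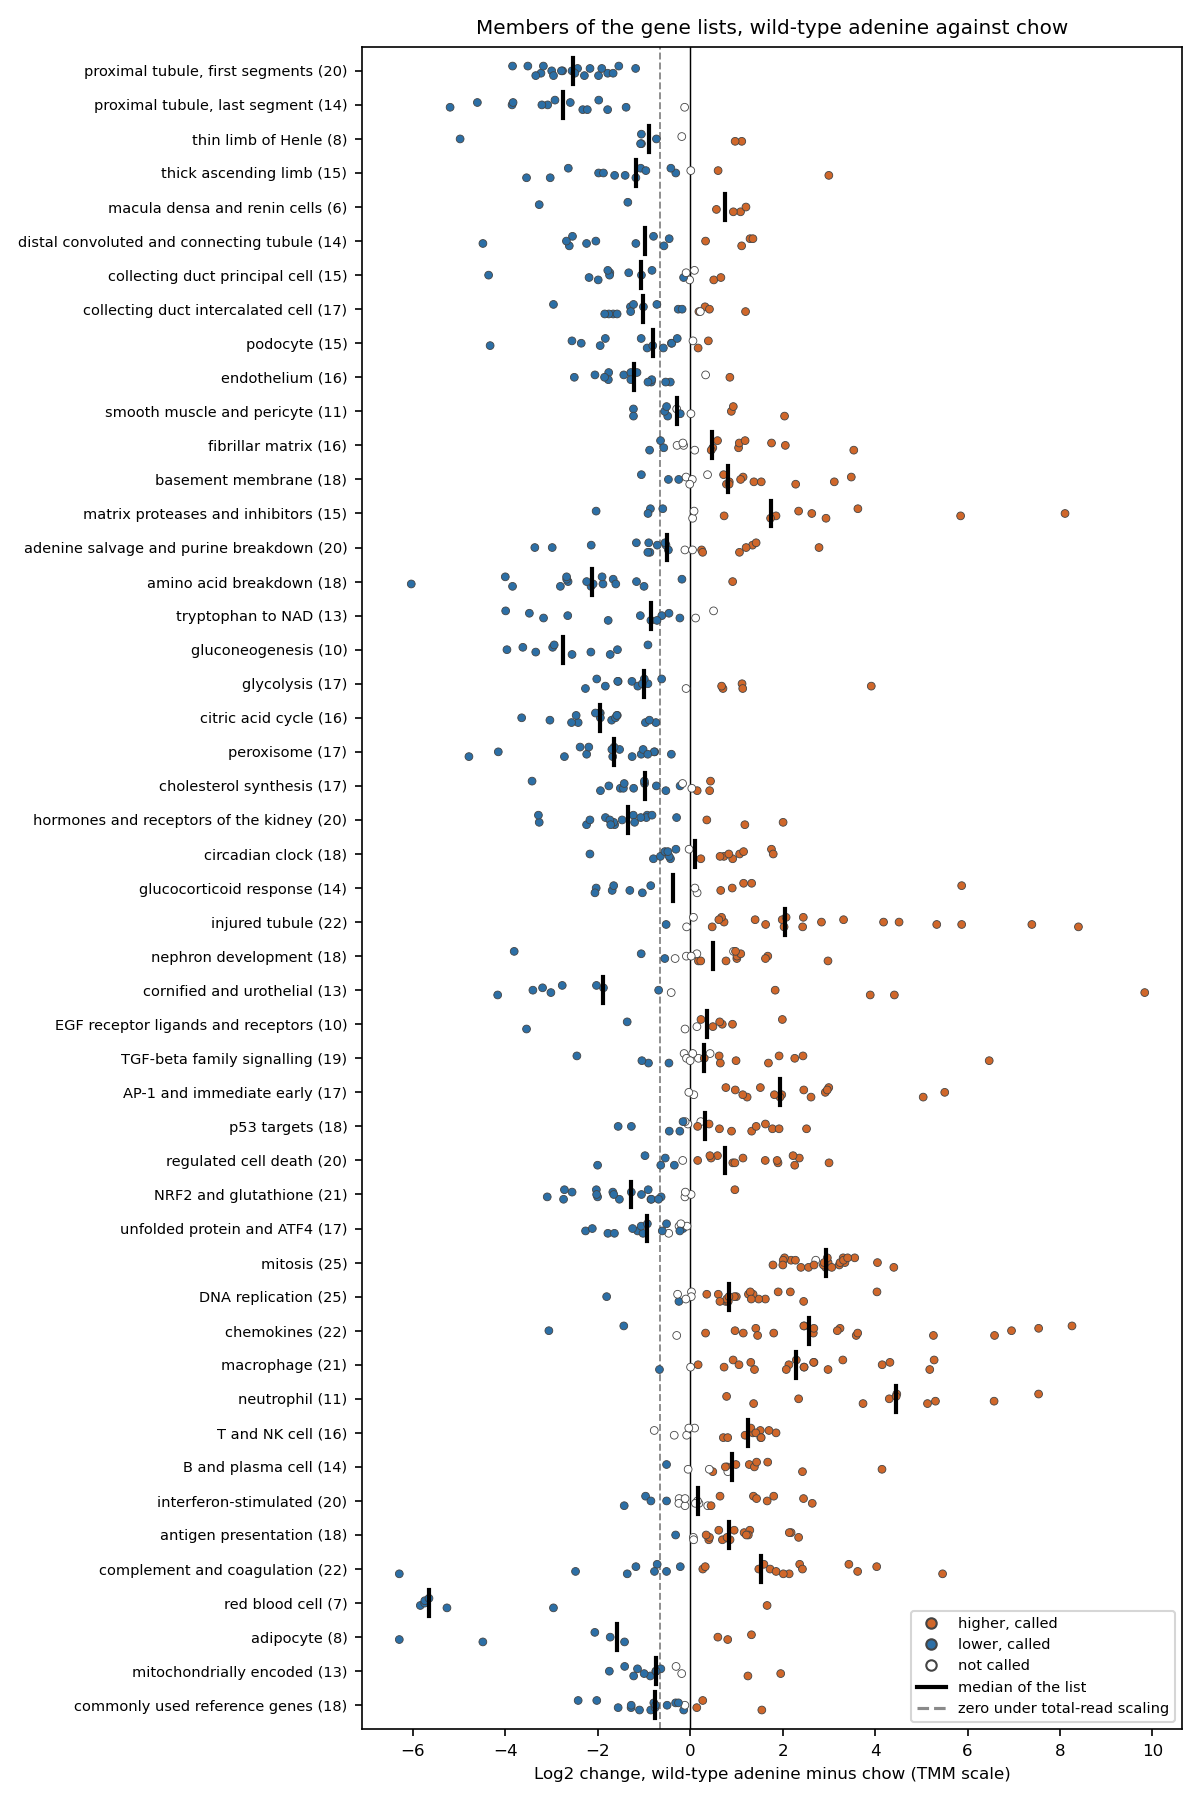
Log2 change of the members of each gene list that were tested, 1 point a gene, with the list's median as a bar. Lists of tubule segments and metabolism lie mostly below 0 and lists of injury, mitosis and leukocytes mostly above it.

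All 20 genes of the early proximal tubule, the segment that reclaims filtered glucose, amino acids, phosphate and protein, were lower by at least 2-fold, with a median of -2.53 beside 0.07 over all genes tested. Their summed level went from 13789 to 14442 CPM to 2445 to 4217 CPM. Gatm, which makes the creatine precursor guanidinoacetate, was at 629, 704, 566 and 642 CPM on chow and 43.9 to 83.4 CPM (median 47.9) on adenine (log2 change -3.51 ± 0.24 SE, adjusted p = 5.18e-11). In Gatm every adenine library lay at least several-fold under every chow library. Slc22a6, the basolateral organic anion transporter OAT1, was at 422, 431, 426 and 427 CPM on chow and 32.1 to 61.4 CPM (median 45.2) on adenine (log2 change -3.23 ± 0.19 SE, adjusted p = 9.65e-12). The sodium-glucose cotransporter gene Slc5a2 fell less, from 713 ± 18.1 to 180.1 ± 30.6 CPM (log2 change -1.99 ± 0.15 SE, adjusted p = 3.08e-10), and so did the gene of the transcription factor Hnf4a (606 ± 17.9 to 161 ± 13.6 CPM, log2 change -1.92 ± 0.11 SE, adjusted p = 2.57e-12). The phosphate transporter gene Slc34a1 had the smallest fall of the list, -1.18 on the log2 scale. Slc5a2, Hnf4a and Slc34a1 were picked after their values were seen. In Slc34a1 reads on protein-coding transcripts fell from 1531 ± 51.0 to 703 ± 163 CPM and reads on its other transcripts from 1400.2 ± 123 to 589 ± 153 CPM.

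The last proximal segment was almost as uniformly low: 13 of 14 genes tested were lower, all by at least 2-fold, with a median of -2.76. Slc22a7, the anion transporter OAT2, was at 371, 346, 323 and 343 CPM on chow and 2.33 to 21.3 CPM (median 7.46) on adenine (log2 change -5.20 ± 0.40 SE, adjusted p = 3.41e-10). Its 6 adenine libraries spanned almost 1 order of magnitude without reaching the chow range. The related transporter genes Slc22a19 (203 ± 15.6 to 8.30 ± 5.42 CPM, log2 change -4.61 ± 0.28 SE, adjusted p = 1.23e-11) and Slc22a13 (205 ± 3.79 to 14.1 ± 3.36 CPM, log2 change -3.86 ± 0.12 SE, adjusted p = 1.34e-15) also fell. Napsa, the aspartic protease napsin A, dropped from 5023 ± 154 to 352 ± 58.6 CPM (log2 change -3.83 ± 0.11 SE, adjusted p = 8.78e-16). Cyp7b1, an oxysterol hydroxylase, was the member that did not pass the test (4.20 ± 0.659 to 3.86 ± 0.544 CPM, log2 change -0.12 ± 0.13 SE, adjusted p = 0.383).

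G6pc encodes the glucose-6-phosphatase that ends gluconeogenesis in the proximal tubule. Its promoter is shown because G6pc and Gatm had the largest falls of the early proximal genes with a promoter in the RefSeq table. The G6pc window is the 250 bases before the RefSeq start on the plus strand of GRCm38.p6, chr11:101367466-101367715, with a match to the HNF1 motif GTTAAT on either strand in capitals. HNF1 factors are transcription factors of proximal tubule and liver.
G6pc: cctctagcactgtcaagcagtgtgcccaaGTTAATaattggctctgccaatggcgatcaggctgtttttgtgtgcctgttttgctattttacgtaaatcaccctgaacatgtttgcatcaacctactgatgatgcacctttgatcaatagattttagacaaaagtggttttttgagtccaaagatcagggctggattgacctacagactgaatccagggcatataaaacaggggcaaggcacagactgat
The motif occurred in 6 of the 17 early proximal genes with a promoter in the RefSeq table (35.3%), in 1 of 10 genes of the last segment, and in 7.49% of all 27025 genes with a promoter there. A match is a description of letters, not a shown binding site. The HNF4A core CAAAGTCCA occurred in 0 of the 17, in 1 of the 10 genes of the last segment and in 0.45% of all genes. The promoter of Gatm, chosen by the same rule as G6pc, held no match to either motif and is not printed.

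Gluconeogenesis, which the proximal tubule shares with liver, fell with the transporters: 10 of 10 genes were lower, 9 by at least 2-fold, with a median of -2.75. G6pc was at 338, 366, 319.6 and 338 CPM on chow and 19.6 to 55.3 CPM (median 31.3) on adenine (log2 change -3.34 ± 0.26 SE, adjusted p = 4.01e-10). Fbp1, fructose-1,6-bisphosphatase, was at 758, 799.8, 561 and 661 CPM on chow and 33.9 to 57.2 CPM (median 44.2) on adenine (log2 change -3.97 ± 0.22 SE, adjusted p = 2.93e-12). Ketohexokinase, the first step of fructose use, followed (Khk, 976 ± 61.4 to 79.2 ± 8.31 CPM, log2 change -3.62 ± 0.12 SE, adjusted p = 5.83e-15), as did pyruvate carboxylase (Pcx, 288 ± 19.6 to 36.6 ± 5.44 CPM, log2 change -2.98 ± 0.16 SE, adjusted p = 1.36e-12). Of the amino acid breakdown genes, 17 of 18 were lower with a median of -2.12. Ass1, which with Asl makes the arginine that the kidney exports, was at 1779, 1867, 1746 and 1762 CPM on chow and 84.7 to 159 CPM (median 103) on adenine (log2 change -4.003 ± 0.23 SE, adjusted p = 4.89e-12). The methylmalonyl-CoA mutase gene Mut was also lower (153 ± 14.98 to 21.7 ± 1.29 CPM, log2 change -2.81 ± 0.14 SE, adjusted p = 4.62e-13).

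On the route from tryptophan to NAD, 11 of 13 genes were lower and 0 higher (median -0.85). Under total-read scaling 7 were lower and 3 higher (median -0.20). Acmsd, which diverts the pathway away from NAD, was at 114, 127, 115 and 122 CPM on chow and 5.49 to 10.8 CPM (median 6.93) on adenine (log2 change -3.99 ± 0.22 SE, adjusted p = 3.19e-12). Haao, which makes quinolinate, went from 222 ± 5.93 to 19.8 ± 4.17 CPM (log2 change -3.48 ± 0.15 SE, adjusted p = 5.67e-14). Kmo (153 ± 7.40 to 16.97 ± 3.26 CPM, log2 change -3.17 ± 0.17 SE, adjusted p = 1.58e-12) and Kynu (48.1 ± 3.18 to 7.65 ± 1.37 CPM, log2 change -2.65 ± 0.18 SE, adjusted p = 7.49e-11), the enzymes on either side of 3-hydroxykynurenine, were lower as well. Nnmt, the nicotinamide methyltransferase, and Nmnat2, which makes NAD from its mononucleotide, did not pass the test (1.77 ± 0.333 to 1.91 ± 0.408 CPM, log2 change 0.12 ± 0.19 SE, adjusted p = 0.574, and 0.262 ± 0.0990 to 0.372 ± 0.225 CPM, log2 change 0.504 ± 0.45 SE, adjusted p = 0.301).

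Every one of the 16 citric acid cycle genes was lower (median -1.95), and so was every one of 17 peroxisomal genes tested (median -1.65). Suclg1, a subunit of succinyl-CoA synthetase, was at 411, 400.0, 329 and 376 CPM on chow and 27.2 to 31.9 CPM (median 30.6) on adenine (log2 change -3.65 ± 0.14 SE, adjusted p = 2.58e-14). Mdh2 and Sdhd, malate dehydrogenase and a membrane anchor of succinate dehydrogenase, fell from 529.6 ± 23.8 to 89.2 ± 4.83 CPM (log2 change -2.57 ± 0.08 SE, adjusted p = 2.32e-15) and from 290.1 ± 42.8 to 52.4 ± 3.89 CPM (log2 change -2.47 ± 0.12 SE, adjusted p = 3.45e-13). Among peroxisomal genes, Hao2, a hydroxyacid oxidase, was at 1199, 1118, 1003 and 1085 CPM on chow and 35.5 to 49.7 CPM (median 37.3) on adenine (log2 change -4.79 ± 0.18 SE, adjusted p = 1.53e-14). Ehhadh, the bifunctional enzyme of peroxisomal beta-oxidation, was at 528, 514, 411 and 472 CPM on chow and 21.5 to 33.2 CPM (median 27.6) on adenine (log2 change -4.15 ± 0.19 SE, adjusted p = 1.60e-13). Catalase went from 1028 ± 17.4 to 156 ± 16.02 CPM (log2 change -2.72 ± 0.13 SE, adjusted p = 4.80e-13) and the thiolase Acaa1b from 447 ± 12.8 to 85.7 ± 18.1 CPM (log2 change -2.38 ± 0.15 SE, adjusted p = 2.52e-11).

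Glycolysis was divided: 11 of 17 genes were lower and 5 higher (median -0.996), beside 40.9% and 44.0% of all genes. The abundant enzymes of its later steps fell, among them phosphoglycerate mutase (Pgam1, 391 ± 40.2 to 81.1 ± 5.01 CPM, log2 change -2.27 ± 0.09 SE, adjusted p = 1.94e-14), phosphoglycerate kinase (Pgk1, 530.0 ± 63.6 to 130.3 ± 16.9 CPM, log2 change -2.02 ± 0.10 SE, adjusted p = 9.79e-13) and enolase (Eno1, 923 ± 85.4 to 258 ± 9.91 CPM, log2 change -1.84 ± 0.07 SE, adjusted p = 1.44e-14). Hexokinase 2, an inducible first step that healthy tubules express weakly, was at 1.15, 1.83, 1.34 and 1.17 CPM on chow and 18.1 to 23.6 CPM (median 20.4) on adenine (log2 change 3.92 ± 0.17 SE, adjusted p = 9.09e-14), with no overlap between diets. The lactate exporter gene Slc16a3 rose at a low level (1.66 ± 0.185 to 3.66 ± 0.825 CPM, log2 change 1.14 ± 0.18 SE, adjusted p = 9.33e-06). Tpi1 also rose (7.92 ± 2.85 to 17.3 ± 5.39 CPM, log2 change 1.12 ± 0.25 SE, adjusted p = 4.79e-04), a gene with processed copies elsewhere in the genome, so its count is uncertain. Cholesterol synthesis was mostly lower (12 of 17, median -0.99, or 9 lower and 6 higher under total-read scaling), led by Cyp51, lanosterol demethylase (266 ± 28.6 to 24.8 ± 1.34 CPM, log2 change -3.42 ± 0.07 SE, adjusted p = 4.55e-17).

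The enzymes that handle adenine and its products moved both ways, 7 of 20 higher and 11 lower, beside 44.0% and 40.9% of all genes. Their median of -0.499 turned to 0.15 with 9 higher and 7 lower under total-read scaling. Aprt, the phosphoribosyltransferase that salvages adenine, was at 101, 97.9, 93.0 and 100.1 CPM on chow and 50.9 to 55.9 CPM (median 52.99) on adenine (log2 change -0.87 ± 0.05 SE, adjusted p = 6.38e-12). Xdh, the xanthine dehydrogenase that forms 2,8-dihydroxyadenine, was at 46.4, 54.4, 58.0 and 52.7 CPM on chow and 104 to 119 CPM (median 109) on adenine (log2 change 1.06 ± 0.06 SE, adjusted p = 1.59e-12). The rise of Xdh lay outside its coding transcripts, whose reads went from 12.7 ± 1.44 to 8.90 ± 2.08 CPM while the others went from 40.1 ± 5.86 to 102 ± 2.996 CPM, and with protein-coding transcripts alone its log2 change was -0.37. Aprt and Xdh were picked for their role, after their values were seen. Adk, adenosine kinase, went from 147 ± 9.06 to 18.5 ± 1.33 CPM (log2 change -2.99 ± 0.16 SE, adjusted p = 1.29e-12). The urate transporter genes Slc22a12 (707 ± 13.8 to 68.7 ± 18.9 CPM, log2 change -3.36 ± 0.20 SE, adjusted p = 9.69e-12) and Abcg2 (352 ± 19.8 to 79.6 ± 9.43 CPM, log2 change -2.14 ± 0.11 SE, adjusted p = 1.39e-12) fell. The AMP deaminase genes Ampd2 (27.8 ± 1.49 to 70.8 ± 3.91 CPM, log2 change 1.35 ± 0.06 SE, adjusted p = 2.04e-13) and Ampd3 (25.1 ± 1.09 to 67.4 ± 4.88 CPM, log2 change 1.43 ± 0.09 SE, adjusted p = 1.71e-11) rose. Urate oxidase, Uox, was scarcely detected (0.0748 ± 0.0950 to 0.548 ± 0.121 CPM).

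Downstream of the proximal tubule the falls were smaller and some transporters rose. In the thick ascending limb, which takes up salt and dilutes the urine, 12 of 15 genes were lower and 2 higher (median -1.18). Kcnj1, the potassium channel ROMK, was at 287, 270.2, 217 and 253 CPM on chow and 49.0 to 81.9 CPM (median 63.9) on adenine (log2 change -1.98 ± 0.11 SE, adjusted p = 2.73e-12). Ppp1r1a, a phosphatase inhibitor subunit, fell from 299.8 ± 22.4 to 48.1 ± 8.40 CPM (log2 change -2.64 ± 0.10 SE, adjusted p = 2.00e-14). Of the claudins that set the paracellular path, Cldn14, which blocks calcium uptake, rose from a trace (0.178 ± 0.101 to 1.45 ± 0.342 CPM, log2 change 2.998 ± 0.41 SE, adjusted p = 1.44e-06). Cldn19 rose from 40.3 ± 5.37 to 61.2 ± 7.04 CPM (log2 change 0.60 ± 0.12 SE, adjusted p = 9.97e-05), a call lost with a transcript-length offset (0.11). In the thin limb, 5 of 8 genes were lower and 2 higher, which evened out to 3 and 3 under total-read scaling. The urea transporter gene Slc14a2 fell from 64.8 ± 8.34 to 31.1 ± 10.9 CPM (log2 change -1.06 ± 0.24 SE, adjusted p = 4.34e-04), a call lost under total-read scaling (-0.42). The ephrin receptor gene Epha7 rose from 4.81 ± 0.856 to 10.4 ± 0.666 CPM (log2 change 1.11 ± 0.11 SE, adjusted p = 9.29e-09).

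The distal convoluted and connecting tubule, where sodium and calcium uptake are adjusted, had 10 of 14 genes lower and 4 higher (median -0.99), or 7 and 5 under total-read scaling. The thiazide-sensitive cotransporter gene Slc12a3 was at 475, 445, 642 and 533 CPM on chow and 1019 to 1264 CPM (median 1139) on adenine (log2 change 1.11 ± 0.12 SE, adjusted p = 8.36e-08). Wnk4, a kinase that controls this cotransporter, was at 95.01, 89.8, 118 and 99.6 CPM on chow and 220.4 to 311 CPM (median 257) on adenine (log2 change 1.36 ± 0.09 SE, adjusted p = 4.83e-11). Trpv5, the apical calcium channel, was at 19.3, 19.3, 16.5 and 17.8 CPM on chow and 38.5 to 57.7 CPM (median 43.1) on adenine (log2 change 1.29 ± 0.10 SE, adjusted p = 8.08e-10). All 3 were higher in every adenine library than in any chow library, although Wnk4 rose by 0.24 on the log2 scale once the length of its transcripts was taken into account. The calcium-binding proteins that act beside Trpv5 went the other way. Calb1 fell from 415 ± 25.1 to 71.0 ± 9.36 CPM (log2 change -2.55 ± 0.13 SE, adjusted p = 1.11e-12) and S100g from 1082 ± 40.5 to 176 ± 48.9 CPM (log2 change -2.62 ± 0.17 SE, adjusted p = 3.23e-11). Parvalbumin, Pvalb, fell from 33.7 ± 3.54 to 1.48 ± 1.07 CPM (log2 change -4.49 ± 0.29 SE, adjusted p = 3.31e-11). Genes of the same segment therefore went both ways. Only some of the 14 are named here, so the list is not shown to part by type of protein.

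In principal cells of the collecting duct, the site of vasopressin-driven water uptake, 10 of 15 genes were lower and 2 higher (median -1.06). Under total-read scaling 7 were lower and 6 higher (median -0.42). The water channel gene Aqp2 was at 528, 460.0, 348 and 437 CPM on chow and 88.9 to 148 CPM (median 105) on adenine (log2 change -1.99 ± 0.20 SE, adjusted p = 1.65e-08). Aqp3, the basolateral partner, went from 147 ± 22.8 to 32.1 ± 4.30 CPM (log2 change -2.19 ± 0.14 SE, adjusted p = 2.76e-11). Aqp4 went from 10.04 ± 2.64 to 0.477 ± 0.963 CPM (log2 change -4.36 ± 0.83 SE, adjusted p = 8.07e-05; -6.81 without adenine library 1, which held 2.44 CPM). The vasopressin receptor gene Avpr2 fell from 41.2 ± 4.39 to 12.4 ± 2.11 CPM (log2 change -1.74 ± 0.10 SE, adjusted p = 8.66e-12, picked after its values were seen). Scnn1a, a subunit of the epithelial sodium channel, was at 65.8, 65.0, 75.1 and 67.4 CPM on chow and 64.2 to 82.9 CPM (median 71.1) on adenine (log2 change 0.09 ± 0.07 SE, adjusted p = 0.263). It did not pass the test, but passed as higher under upper-quartile scaling (0.32), under total-read scaling (0.74) and on protein-coding transcripts alone (0.24). Hsd11b2, which keeps cortisol-type steroids off the mineralocorticoid receptor, did not pass the test either (167 ± 7.19 to 157 ± 8.85 CPM, log2 change -0.09 ± 0.07 SE, adjusted p = 0.255). The transcription factor gene Gata3 rose (28.6 ± 0.815 to 40.6 ± 2.75 CPM, log2 change 0.51 ± 0.07 SE, adjusted p = 7.13e-07). Elf5 rose (7.82 ± 0.468 to 12.4 ± 1.83 CPM, log2 change 0.66 ± 0.14 SE, adjusted p = 2.77e-04) on its noncoding transcripts, with 0.11 and no call for the coding ones.

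Intercalated cells, which move acid and bicarbonate, had 12 of 17 genes lower and 4 higher (median -1.01), or 9 and 7 under total-read scaling. The bicarbonate exchangers parted. Slc4a1, of the acid-secreting cell and also of red cells, went from 58.9 ± 7.75 to 7.52 ± 2.05 CPM (log2 change -2.96 ± 0.17 SE, adjusted p = 3.43e-12). Slc26a4, pendrin of the base-secreting cell, was at 107, 104, 112 and 105 CPM on chow and 24.5 to 39.7 CPM (median 31.7) on adenine (log2 change -1.76 ± 0.13 SE, adjusted p = 3.38e-10). Slc4a9, the basolateral exchanger AE4 of the base-secreting cell, was at 78.7, 77.0, 111 and 91.1 CPM on chow and 177 to 229 CPM (median 207) on adenine (log2 change 1.196 ± 0.10 SE, adjusted p = 1.13e-09). Apical and basolateral exchangers of the base-secreting cell thus changed in opposite directions, each without overlap. The proton pump subunit gene Atp6v1g3 (110.5 ± 0.961 to 34.8 ± 1.83 CPM, log2 change -1.67 ± 0.07 SE, adjusted p = 3.72e-14) and the ammonia channel gene Rhbg (78.7 ± 1.57 to 21.8 ± 2.10 CPM, log2 change -1.85 ± 0.10 SE, adjusted p = 2.40e-12) fell. Foxi1, the transcription factor that specifies these cells, was slightly lower (40.0 ± 3.01 to 35.4 ± 3.56 CPM, log2 change -0.18 ± 0.08 SE, adjusted p = 0.0492, picked after its values were seen). Foxi1 no longer passed without chow library 2, 3 or 4 or adenine library 3, 4, 5 or 6 (log2 change -0.18 to -0.12). Nor did Foxi1 pass with the replicate block (-0.19), limma voom (-0.18), no mitochondrial genes (-0.15) or no filter on low counts (-0.18).

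**Figure D3:**
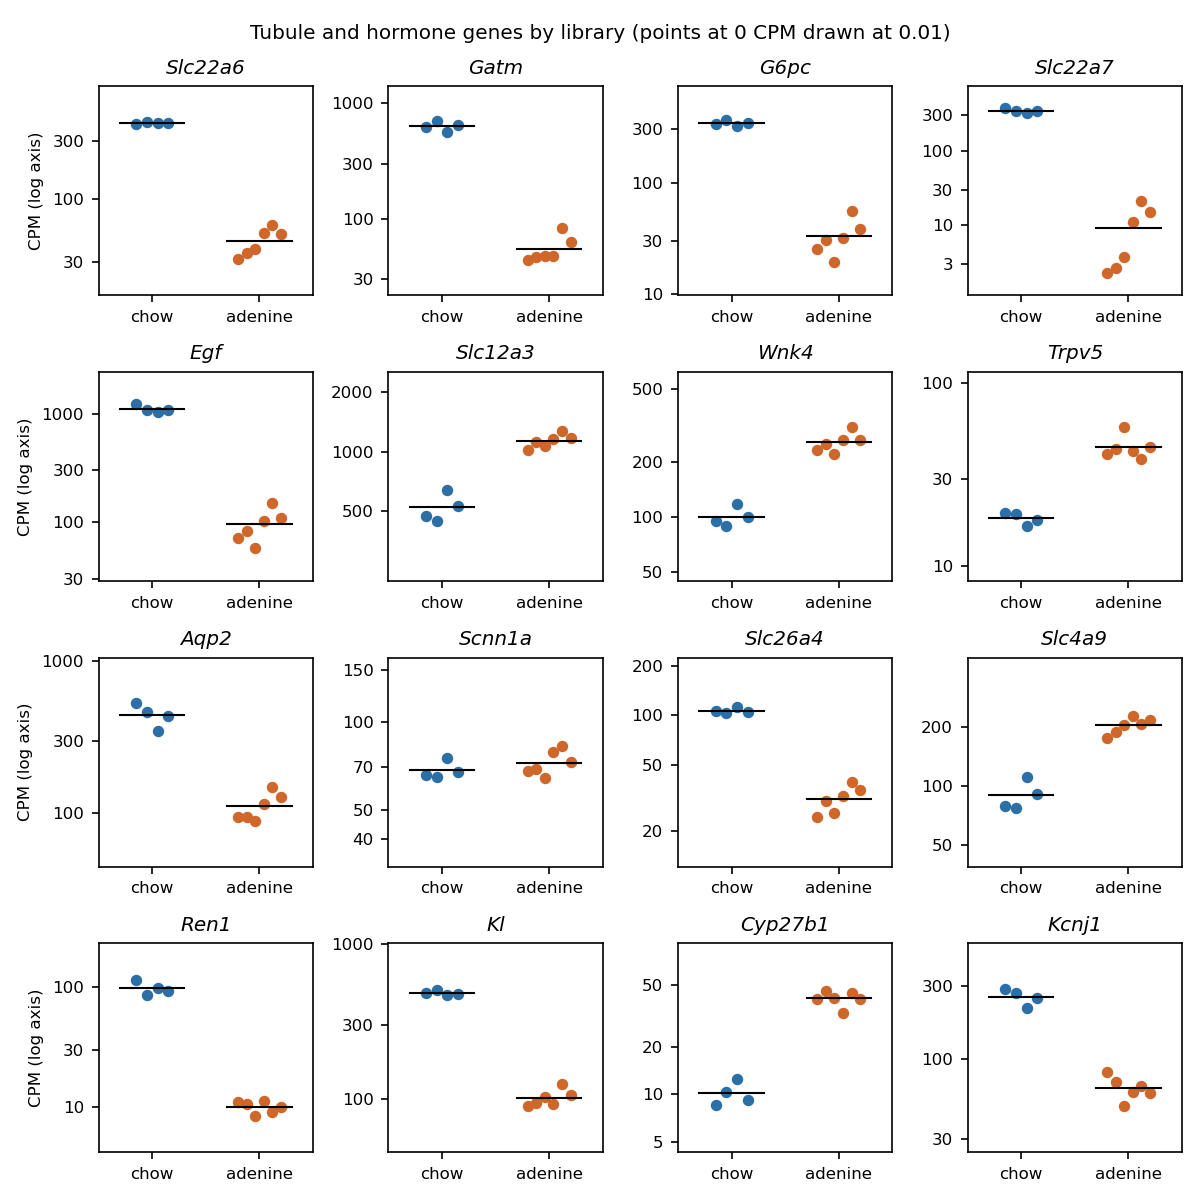
Level in CPM (log axes) of 16 tubule and hormone genes, 1 point a library with the group mean as a line, in 4 chow (blue) and 6 adenine (orange) libraries. Slc12a3, Wnk4, Trpv5, Slc4a9 and Cyp27b1 lie higher on adenine, Scnn1a overlaps, and the rest lie lower.

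Of the kidney's hormones and hormone receptors, 17 of 20 were lower and 3 higher (median -1.35). Ren1, renin, was at 115, 84.7, 98.1 and 92.6 CPM on chow and 8.42 to 11.4 CPM (median 10.4) on adenine (log2 change -3.27 ± 0.35 SE, adjusted p = 5.24e-08). Klotho, the FGF23 coreceptor gene Kl, was at 483, 506, 469 and 475 CPM on chow and 90.3 to 125 CPM (median 98.8) on adenine (log2 change -2.24 ± 0.14 SE, adjusted p = 1.10e-11). Cyp27b1, which activates vitamin D and is normally held down by FGF23 signalling through klotho, was at 8.54, 10.3, 12.6 and 9.27 CPM on chow and 33.1 to 45.9 CPM (median 40.7) on adenine (log2 change 2.01 ± 0.11 SE, adjusted p = 1.54e-12). Renin and klotho were lower and Cyp27b1 higher without overlap, which also held for 75.2% of all genes tested. Reads on the coding transcripts of Cyp27b1 went from 0 in all 4 chow libraries to 19.3 ± 4.69 CPM, those on its other transcripts from 10.2 ± 1.75 to 21.6 ± 5.19 CPM. The FGF receptor gene Fgfr1 rose (41.7 ± 5.19 to 94.7 ± 3.11 CPM, log2 change 1.18 ± 0.06 SE, adjusted p = 2.30e-12). The growth hormone receptor gene Ghr fell (604 ± 31.5 to 134 ± 18.2 CPM, log2 change -2.17 ± 0.09 SE, adjusted p = 4.91e-14), and so did Igfbp3, a carrier of insulin-like growth factors (319 ± 9.58 to 32.7 ± 3.01 CPM, log2 change -3.29 ± 0.13 SE, adjusted p = 3.36e-14). Erythropoietin and Pthlh had too few reads to be tested. Around the macula densa, which senses salt and signals renin release, Ptgs2 (0.793 ± 0.192 to 1.83 ± 0.293 CPM, log2 change 1.21 ± 0.22 SE, adjusted p = 4.59e-05) and Nos1 (0.951 ± 0.0923 to 2.03 ± 0.298 CPM, log2 change 1.09 ± 0.19 SE, adjusted p = 3.01e-05) rose from about 1 CPM while renin fell.

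In the glomerulus, 12 of 15 podocyte genes were lower and 2 higher (median -0.81), a count that became 6 lower and 6 higher under total-read scaling. Podxl, which keeps the slits open, was at 244, 238, 234 and 239.7 CPM on chow and 34.3 to 58.8 CPM (median 46.1) on adenine (log2 change -2.36 ± 0.16 SE, adjusted p = 4.45e-11). Cdkn1c, a cell cycle inhibitor of mature podocytes, went from 72.4 ± 2.74 to 12.2 ± 3.95 CPM (log2 change -2.56 ± 0.18 SE, adjusted p = 9.57e-11). Synpo, an actin organiser of foot processes, overlapped between diets (62.2 ± 4.92 to 64.7 ± 4.52 CPM, log2 change 0.06 ± 0.08 SE, adjusted p = 0.511), as the sum of coding transcripts that rose from 9.44 ± 3.54 to 33.9 ± 3.55 CPM (log2 change 1.99) and others that went from 52.7 ± 2.91 to 30.8 ± 3.10 CPM. Endothelial genes were lower in 14 of 16 (median -1.22), or in 10 with 3 higher under total-read scaling, for example Plvap of fenestrated and venous vessels (116 ± 11.6 to 32.2 ± 5.36 CPM, log2 change -1.85 ± 0.14 SE, adjusted p = 1.87e-10) and Emcn (90.7 ± 7.41 to 26.5 ± 3.52 CPM, log2 change -1.77 ± 0.11 SE, adjusted p = 2.98e-11). Nos3, the endothelial nitric oxide synthase, was higher (8.52 ± 1.48 to 15.4 ± 1.55 CPM, log2 change 0.86 ± 0.10 SE, adjusted p = 2.72e-07). Smooth muscle and pericyte genes were mixed, 3 higher and 6 lower of 11, beside 44.0% and 40.9% of all genes (median -0.29, or 0.35 under total-read scaling). In this list Des, a contractile-cell filament, fell from 19.2 ± 1.08 to 8.20 ± 1.19 CPM (log2 change -1.23 ± 0.10 SE, adjusted p = 8.82e-10). The mural cell receptor gene Notch3 rose from 5.83 ± 0.811 to 24.0 ± 2.79 CPM (log2 change 2.04 ± 0.10 SE, adjusted p = 8.80e-13).

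Genes of the injured tubule rose in 19 of 22, 15 of them by at least 2-fold, with a median of 2.05. The summed level of the list went from 2780.2 to 3046 CPM to 16273 to 24768 CPM, most of it Spp1. Sox9, a transcription factor of regenerating tubule, was at 0.959, 0.681, 0.989 and 0.963 CPM on chow and 23.3 to 44.2 CPM (median 36.9) on adenine (log2 change 5.33 ± 0.21 SE, adjusted p = 2.61e-14). Krt20, a keratin of stressed epithelium, was at 0.0480, 0.367, 0.0989 and 0.405 CPM on chow and 25.4 to 53.5 CPM (median 38.4) on adenine (log2 change 7.39 ± 0.39 SE, adjusted p = 1.29e-12). Vcam1, the adhesion molecule that marks tubule cells in failed repair, was at 12.6, 14.9, 14.3 and 13.3 CPM on chow and 190.4 to 326 CPM (median 247) on adenine (log2 change 4.18 ± 0.16 SE, adjusted p = 1.67e-14, picked after its values were seen). None of these overlapped between diets, and all 3 started under 20 CPM on chow. Prom1, a surface protein also used to mark regenerating cells, was the 1 member that fell (151 ± 11.9 to 105 ± 14.2 CPM, log2 change -0.52 ± 0.08 SE, adjusted p = 8.36e-06; 0.14 under total-read scaling). Cdh6, a cadherin of the developing proximal tubule, did not pass the test (47.0 ± 0.331 to 49.3 ± 5.30 CPM, log2 change 0.07 ± 0.07 SE, adjusted p = 0.383).

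Of the genes that build the nephron in the embryo, 10 of 18 rose and 3 fell (median 0.50), beside 44.0% and 40.9% of all genes. In the fit of the 10 libraries alone the median was 0.23. Pax2, needed for the first epithelium of the kidney, was at 9.35, 8.02, 12.96 and 10.4 CPM on chow and 75.0 to 90.9 CPM (median 79.5) on adenine (log2 change 2.98 ± 0.13 SE, adjusted p = 6.22e-14). Wnt4 (10.9 ± 0.707 to 34.8 ± 3.67 CPM, log2 change 1.68 ± 0.15 SE, adjusted p = 3.17e-09) and Ncam1 (11.8 ± 0.806 to 36.5 ± 4.09 CPM, log2 change 1.63 ± 0.08 SE, adjusted p = 1.11e-12), both of the forming nephron vesicle, also rose. The progenitor genes did not join them. Cited1 fell from 3.01 ± 0.212 to 0.207 ± 0.0973 CPM (log2 change -3.81 ± 0.27 SE, adjusted p = 1.33e-10), and Six2 was under 1 CPM without passing the test (0.203 ± 0.130 to 0.389 ± 0.164 CPM, log2 change 0.94 ± 0.46 SE, adjusted p = 0.0652). Without chow library 2, or without adenine library 2 or 3, Six2 passed (log2 change 1.38, 1.04 and 1.06).

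A small set of cornified and urothelial genes was divided, with 4 of 13 higher and 8 lower, beside 44.0% and 40.9% of all genes. Of the uroplakins, plaque proteins of the urothelium, Upk3a (4.54 ± 0.466 to 0.245 ± 0.298 CPM, log2 change -4.17 ± 0.52 SE, adjusted p = 4.48e-07) and Upk1b (4.08 ± 0.421 to 0.429 ± 0.580 CPM, log2 change -3.20 ± 0.57 SE, adjusted p = 4.00e-05) were lower. Without adenine library 5 their log2 changes were -5.05 and -4.11. Sprr1a, a precursor of the cornified envelope, was at 2.59, 2.10, 3.66 and 2.23 CPM on chow and 25.5 to 54.6 CPM (median 38.7) on adenine (log2 change 3.89 ± 0.27 SE, adjusted p = 7.59e-11). Its relative Sprr2f had 1 read over the 4 chow libraries and 12.6 to 17.7 CPM in every adenine library (1279.5-fold, counting interval 229 to 50559). Sprr1a and Sprr2f thus moved opposite to Upk3a and Upk1b in the same libraries. The 8 lower genes also included members that are not uroplakins, so the list did not part by type.

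Immediate early genes, the first to respond to growth factors and stress, were higher in 15 of 17 with 0 lower (median 1.94). Myc was at 5.42, 6.03, 6.13 and 5.88 CPM on chow and 35.9 to 58.1 CPM (median 45.3) on adenine (log2 change 2.96 ± 0.14 SE, adjusted p = 2.85e-13). Egr2 was at 0.624, 0.891, 0.643 and 0.355 CPM on chow and 4.31 to 6.46 CPM (median 4.75) on adenine (log2 change 2.997 ± 0.28 SE, adjusted p = 6.37e-09), both factors without overlap of diets. Egr3 rose from a trace (0.0744 ± 0.0621 to 2.63 ± 0.731 CPM, log2 change 5.04 ± 0.40 SE, adjusted p = 6.72e-10), and Fosl1 had 3 reads on chow and 1.26 to 2.44 CPM on adenine (51.1-fold, counting interval 17.3 to 249). Ier2, which responds within minutes of a stimulus, did not pass the test (29.0 ± 1.91 to 30.6 ± 2.19 CPM, log2 change 0.08 ± 0.08 SE, adjusted p = 0.381). Among ligands and receptors of the EGF family, 6 of 10 were higher and 2 lower, beside 44.0% and 40.9% of all genes. The list's summed level nevertheless fell, from 1315 to 1509 CPM on chow to 463 to 548 CPM on adenine. Egf, also in the thick ascending limb list, had its largest fall (log2 change -3.54). Nrg1, neuregulin, was at 9.06, 11, 11.1 and 12.1 CPM on chow and 32.9 to 56.4 CPM (median 42.4) on adenine (log2 change 1.99 ± 0.14 SE, adjusted p = 7.53e-11). Hbegf rose from 16.9 ± 0.822 to 31.8 ± 4.001 CPM (log2 change 0.91 ± 0.09 SE, adjusted p = 2.30e-08). Betacellulin, Btc, fell from 8.75 ± 0.399 to 3.39 ± 0.837 CPM (log2 change -1.37 ± 0.16 SE, adjusted p = 1.26e-07). The receptor gene Egfr did not pass the test (59.3 ± 1.08 to 54.9 ± 5.72 CPM, log2 change -0.11 ± 0.06 SE, adjusted p = 0.110) except without adenine library 3 (log2 change -0.16) and with a transcript-length offset (-0.28). The cytokine gene Lif, of the interleukin-6 family, had one of the largest rises of all expressed genes, at 0.384, 0.576, 0.297 and 0.355 CPM on chow and 32.4 to 46.2 CPM (median 38.8) on adenine (log2 change 6.57 ± 0.22 SE, adjusted p = 5.23e-15).

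In the TGF-beta family, 9 of 19 genes were higher and 4 lower (median 0.30), an upward share near the 44.0% of all genes. Under total-read scaling 16 were higher and 2 lower. Ltbp2, a microfibril protein related to the TGF-beta binding proteins, was at 0.767, 0.524, 0.544 and 0.507 CPM on chow and 40.1 to 74.7 CPM (median 46.0) on adenine (log2 change 6.47 ± 0.30 SE, adjusted p = 2.96e-13, and 7.22 on protein-coding transcripts alone). The activin subunits Inhba (2.32 ± 0.567 to 11.1 ± 0.783 CPM, log2 change 2.26 ± 0.13 SE, adjusted p = 3.90e-12) and Inhbb (1.47 ± 0.322 to 8.01 ± 1.01 CPM, log2 change 2.44 ± 0.16 SE, adjusted p = 2.32e-11) rose. Bmp7, which protects tubule epithelium, fell from 38.7 ± 1.43 to 18.7 ± 0.761 CPM (log2 change -1.05 ± 0.06 SE, adjusted p = 5.25e-12). Of p53 targets, 10 of 18 were higher and 5 lower, beside 44.0% and 40.9% of all genes, or 16 and 2 under total-read scaling. The proapoptotic Bbc3 rose from 2.80 ± 0.526 to 16.05 ± 1.75 CPM (log2 change 2.52 ± 0.15 SE, adjusted p = 8.79e-12). Gdf15 rose from 11.1 ± 1.01 to 42.1 ± 10.1 CPM (log2 change 1.92 ± 0.17 SE, adjusted p = 3.75e-09), while cyclin G1, Ccng1, fell from 142 ± 7.99 to 48.3 ± 3.65 CPM (log2 change -1.56 ± 0.07 SE, adjusted p = 9.27e-14).

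Genes of regulated cell death were higher in 14 of 20 and lower in 5 (median 0.75). Casp4, the inflammatory caspase that cuts gasdermin D, was at 3.79, 4.56, 4.40 and 4.87 CPM on chow and 32.3 to 39.4 CPM (median 34.3) on adenine (log2 change 3.003 ± 0.10 SE, adjusted p = 4.65e-15). Gsdmd, the pore former itself, was at 3.31, 5.82, 4.70 and 3.65 CPM on chow and 21.04 to 23.6 CPM (median 22.5) on adenine (log2 change 2.36 ± 0.14 SE, adjusted p = 1.02e-11). The necroptosis genes Ripk3 (1.35 ± 0.506 to 5.05 ± 0.699 CPM, log2 change 1.90 ± 0.18 SE, adjusted p = 9.04e-09) and Mlkl (1.71 ± 0.390 to 5.27 ± 0.802 CPM, log2 change 1.62 ± 0.16 SE, adjusted p = 2.18e-08) rose at a low level, both picked after their values were seen. Gpx4, which guards membranes against ferroptosis, fell from 1279.6 ± 121 to 319 ± 20.3 CPM (log2 change -2.01 ± 0.08 SE, adjusted p = 1.73e-14).

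Antioxidant genes did not rise with the injury genes. Of 21 genes of the NRF2 and glutathione list, 17 were lower and 1 higher (median -1.28). Nqo1, a standard NRF2 target, was at 72.2, 65.4, 66.7 and 66.1 CPM on chow and 9.55 to 10.6 CPM (median 10.1) on adenine (log2 change -2.74 ± 0.10 SE, adjusted p = 6.70e-15). Sod1 fell from 1015 ± 55.2 to 119 ± 14.3 CPM (log2 change -3.10 ± 0.09 SE, adjusted p = 1.48e-15). Hmox1, the inducible haem oxygenase, did not pass the test (20.6 ± 0.553 to 19.0 ± 1.25 CPM, log2 change -0.12 ± 0.07 SE, adjusted p = 0.145). The cystine importer gene Slc7a11 was the member that rose (3.65 ± 0.581 to 7.11 ± 1.72 CPM, log2 change 0.96 ± 0.20 SE, adjusted p = 2.23e-04; 2.003 for protein-coding transcripts alone). Genes of the unfolded protein response and of ATF4 were lower in 13 of 17 and higher in 0 (median -0.93). Under total-read scaling 9 were lower and 4 higher (median -0.28). The chaperone gene Hspa5 fell from 439 ± 44.2 to 127 ± 16.5 CPM (log2 change -1.78 ± 0.09 SE, adjusted p = 4.68e-13). Herpud1 fell from 352 ± 21.1 to 80.9 ± 2.34 CPM (log2 change -2.12 ± 0.12 SE, adjusted p = 3.90e-12) and Sdf2l1 from 20.8 ± 0.987 to 4.35 ± 1.12 CPM (log2 change -2.27 ± 0.13 SE, adjusted p = 4.03e-12). Chac1, an ATF4 target, did not pass the test (0.869 ± 0.395 to 0.626 ± 0.154 CPM, log2 change -0.47 ± 0.26 SE, adjusted p = 0.105), but passed without chow library 3 or adenine library 1 (log2 change -0.61 and -0.60).

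Cell division genes rose together. Of 25 mitosis genes, 24 were higher, all by at least 2-fold, with a median of 2.93, and their summed level went from 36.8 to 44.8 CPM to 267 to 329 CPM. Mki67, the antigen of cycling cells, is joined here by Ttk, a checkpoint kinase, since both are among the members with the largest rise and a promoter in the RefSeq table. The sequences are the 250 bases before the start in GRCm38.p6, for Mki67 on the minus strand of chr7:135716380-135716629 and for Ttk on the plus strand of chr9:83834439-83834688. Capitals mark the CCAAT box (CCAAT on either strand) and the cell cycle homology element (TTTGAA on either strand), letters found in many promoters that are active late in the cell cycle.
Mki67: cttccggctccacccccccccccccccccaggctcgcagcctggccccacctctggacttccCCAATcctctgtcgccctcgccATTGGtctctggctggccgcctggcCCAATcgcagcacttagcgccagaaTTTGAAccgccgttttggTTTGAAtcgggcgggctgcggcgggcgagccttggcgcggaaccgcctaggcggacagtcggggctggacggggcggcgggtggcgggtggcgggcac
Ttk: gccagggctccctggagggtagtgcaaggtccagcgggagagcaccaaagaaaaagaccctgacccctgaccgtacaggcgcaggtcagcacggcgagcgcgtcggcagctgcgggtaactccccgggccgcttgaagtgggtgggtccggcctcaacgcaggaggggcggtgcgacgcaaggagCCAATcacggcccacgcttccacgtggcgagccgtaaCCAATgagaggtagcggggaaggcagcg
The Mki67 window held 3 CCAAT boxes and 2 cell cycle homology elements and the Ttk window 2 CCAAT boxes. Over the list, 17 of the 20 members with a promoter held a CCAAT box (85.0%, against 37.5% of all 27025 genes) and 7 a cell cycle homology element (35.0%, against 18.3%). The E2F site TTTCCCGC was in 0 of the 20 and in 1.03% of all genes. The 2 motifs do not overlap in their letters, and a match is a description of letters.

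Ttk was at 0.0959, 0.210, 0.198 and 0.203 CPM on chow and 1.67 to 2.68 CPM (median 2.07) on adenine (log2 change 3.56 ± 0.28 SE, adjusted p = 5.25e-10, and 4.62 on protein-coding transcripts alone). Aurkb, a kinase of chromosome segregation, was at 0.336, 0.314, 0.297 and 0.304 CPM on chow and 4.14 to 6.45 CPM (median 5.30) on adenine (log2 change 4.05 ± 0.21 SE, adjusted p = 1.49e-12). Foxm1, a transcription factor that drives mitotic genes, was at 1.10, 0.681, 1.34 and 1.57 CPM on chow and 11.5 to 15.3 CPM (median 11.99) on adenine (log2 change 3.41 ± 0.15 SE, adjusted p = 9.26e-14). All 3 were under 2 CPM in every chow library, and the groups did not overlap. Bub1 alone did not pass the test (0.218 ± 0.280 to 1.42 ± 1.64 CPM, log2 change 2.72 ± 1.34 SE, adjusted p = 0.0674), though it did without chow library 2 (4.06) and without adenine library 2, 3 or 4 (2.95, 2.96 and 2.98). Bub1 also passed in the fit of the 10 libraries alone (2.72), under upper-quartile (2.94) and total-read scaling (3.36) and with a transcript-length offset (3.32). DNA replication genes moved less, 19 of 25 higher with a median of 0.84. Cdc6, which loads the replicative helicase, rose from 0.574 ± 0.154 to 3.18 ± 0.728 CPM (log2 change 2.45 ± 0.23 SE, adjusted p = 9.48e-09). Rrm2 of ribonucleotide reductase rose from 3.05 ± 0.490 to 13.7 ± 1.70 CPM (log2 change 2.17 ± 0.13 SE, adjusted p = 9.09e-12) and Pole, a replicative polymerase, from 2.84 ± 0.236 to 10.6 ± 2.35 CPM (log2 change 1.90 ± 0.17 SE, adjusted p = 2.62e-09). Rfc4, of the clamp loader, did not pass the test (5.35 ± 0.314 to 4.43 ± 0.736 CPM, log2 change -0.27 ± 0.14 SE, adjusted p = 0.0683), but passed without adenine library 3 (log2 change -0.33). Replication promoters held a CCAAT box in 14 of 20 (70.0%), a cell cycle homology element in 3 (15.0%) and the E2F site in 2 (10%).

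Chemokines, which recruit leukocytes, were higher in 19 of 22 with a median of 2.56. The promoters of Cxcl1 and Cxcl2, attractants of neutrophils that lie next to each other on chromosome 5, are shown. Of the chemokine genes with a promoter in the RefSeq table, these had the largest changes. They are the 250 bases before the start in GRCm38.p6, both on the plus strand, chr5:90890995-90891244 and chr5:90903649-90903898. Capitals mark the NF-kB site, searched on both strands, where 2 overlapping matches merge in each.
Cxcl1: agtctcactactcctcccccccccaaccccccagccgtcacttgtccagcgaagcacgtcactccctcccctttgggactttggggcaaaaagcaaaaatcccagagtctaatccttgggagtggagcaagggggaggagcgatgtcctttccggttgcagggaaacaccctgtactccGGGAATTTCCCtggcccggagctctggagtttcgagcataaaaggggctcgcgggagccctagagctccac
Cxcl2: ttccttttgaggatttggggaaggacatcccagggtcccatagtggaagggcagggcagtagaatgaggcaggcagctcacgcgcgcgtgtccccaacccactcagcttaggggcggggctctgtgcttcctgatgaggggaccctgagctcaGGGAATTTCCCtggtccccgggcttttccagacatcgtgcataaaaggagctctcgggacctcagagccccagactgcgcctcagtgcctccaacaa
The NF-kB site was in 5 of the 16 chemokine genes with a promoter in the table (31.3%, against 8.23% of all genes), and these 5 were among the 13 that rose. Cxcl2 was at 0, 0.0524, 0.198 and 0.101 CPM on chow and 14.99 to 21.1 CPM (median 17.1) on adenine (log2 change 7.54 ± 0.36 SE, adjusted p = 3.14e-13). Cxcl1 was at 0.624, 0.891, 0.693 and 0.7095 CPM on chow and 65.6 to 130.2 CPM (median 86.9) on adenine (log2 change 6.95 ± 0.29 SE, adjusted p = 5.04e-14). Ccl20, which attracts cells that carry CCR6, was at 0.0480, 0, 0 and 0.152 CPM on chow and 4.40 to 6.12 CPM (median 5.30) on adenine (log2 change 6.58 ± 0.37 SE, adjusted p = 3.28e-12). Without chow library 4 the log2 change of Ccl20 was 7.95, and without chow library 3 that of Cxcl2 was 8.30. On protein-coding transcripts alone Cxcl1 changed by 6.17 and Cxcl2 by 6.64 as log2 values. For each of these the lowest adenine library lay over 10 times above the highest chow library. Cxcl5 had 3 reads on chow and 9.30 to 21.8 CPM on adenine (350.3-fold, counting interval 119.7 to 1699.9). Cxcl12, a constitutive chemokine of stroma and podocytes, fell from 201.0 ± 28.6 to 24.1 ± 4.71 CPM (log2 change -3.06 ± 0.14 SE, adjusted p = 1.41e-13), and Cxcl14 from 38.2 ± 0.741 to 14.1 ± 2.50 CPM (log2 change -1.44 ± 0.10 SE, adjusted p = 1.65e-10). Cxcl9, an interferon gamma target, did not pass the test (3.75 ± 0.696 to 3.07 ± 0.729 CPM, log2 change -0.29 ± 0.17 SE, adjusted p = 0.118).

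Leukocyte genes rose in most lists from low levels. Of the macrophage genes, 19 of 21 were higher (median 2.29), the summed level going from 231 to 247 CPM to 527 to 776 CPM. Trem2, a lipid receptor of tissue macrophages, was at 0.240, 0.734, 0.495 and 0.405 CPM on chow and 5.99 to 14.5 CPM (median 7.99) on adenine (log2 change 4.32 ± 0.33 SE, adjusted p = 3.70e-10). Gpnmb, a glycoprotein of lipid-laden macrophages, was at 0.144, 0.314, 0.198 and 0.355 CPM on chow and 4.69 to 21.96 CPM (median 5.67) on adenine (log2 change 5.28 ± 0.65 SE, adjusted p = 3.65e-07). Csf1r, the receptor that all macrophages need, did not pass the test (59.6 ± 4.50 to 59.9 ± 5.48 CPM, log2 change 0.01 ± 0.07 SE, adjusted p = 0.931). Spic, of red pulp and iron-handling macrophages, fell (4.60 ± 1.02 to 2.88 ± 0.331 CPM, log2 change -0.67 ± 0.14 SE, adjusted p = 2.04e-04), a call lost under total-read scaling (-0.02). All 11 neutrophil genes tested were higher (median 4.46). Genes near 0 on chow entered the test through the adenine libraries alone, so this count and median follow in part from the read filter. S100a8 was at 0.0480, 0.0524, 0.495 and 0.0507 CPM on chow and 4.40 to 9.87 CPM (median 5.14) on adenine (log2 change 5.13 ± 0.48 SE, adjusted p = 7.25e-09; 6.75 without chow library 3, the highest on chow). S100a9, its partner in calprotectin, was at 0.432, 0, 0.247 and 0.304 CPM on chow and 7.67 to 14.6 CPM (median 9.48) on adenine (log2 change 5.31 ± 0.43 SE, adjusted p = 8.32e-10). Trem1 had 0 reads on chow and 0.648 to 1.16 CPM on adenine (at least 25.1-fold higher). The neutrophil genes Ly6g, Mpo, Elane, Ngp and Camp had too few reads to be tested.

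T and NK cell genes rose in 11 of 16 (median 1.25), with a summed level of 14.0 to 17.2 CPM on chow and 24.8 to 32.7 CPM on adenine. Lck, the kinase of the T cell receptor, rose from 1.61 ± 0.196 to 5.81 ± 1.07 CPM (log2 change 1.86 ± 0.17 SE, adjusted p = 5.16e-09). Cd4 rose from 1.09 ± 0.197 to 3.12 ± 0.820 CPM (log2 change 1.52 ± 0.22 SE, adjusted p = 2.96e-06, picked after its values were seen). Cd8a did not pass the test (2.84 ± 0.347 to 3.03 ± 0.302 CPM, log2 change 0.09 ± 0.11 SE, adjusted p = 0.438, picked after its values were seen). B and plasma cell genes rose in 10 of 14, while their summed level overlapped, at 191 to 213 CPM on chow and 164 to 239.9 CPM on adenine. Mast cell genes were mostly untested, 2 of 8 having enough reads. Antigen presentation genes were higher in 15 of 18 (median 0.83). Nlrc5 and Ciita, the regulators of class I and class II genes, rose from 5.87 ± 0.983 to 26.7 ± 1.95 CPM (log2 change 2.18 ± 0.09 SE, adjusted p = 8.92e-14) and from 4.26 ± 0.775 to 18.8 ± 1.46 CPM (log2 change 2.14 ± 0.11 SE, adjusted p = 1.47e-12). Of interferon-stimulated genes, 8 of 20 were higher, near the 44.0% of all genes, 4 lower and 8 not past the test. Under total-read scaling 16 were higher and 3 lower. Oas2 rose from 4.42 ± 1.44 to 27.7 ± 5.20 CPM (log2 change 2.64 ± 0.18 SE, adjusted p = 8.19e-11). Mx1 rose from 1.57 ± 0.358 to 8.66 ± 2.58 CPM (log2 change 2.45 ± 0.23 SE, adjusted p = 1.01e-08), and the log2 changes of Oas2 and Mx1 were 3.29 and 3.09 on protein-coding transcripts alone. Rsad2, viperin, fell from 60.4 ± 4.64 to 22.5 ± 3.43 CPM (log2 change -1.43 ± 0.09 SE, adjusted p = 2.41e-11).

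Complement and coagulation genes, some made by tubule and some by leukocytes, were higher in 14 of 22 and lower in 8 (median 1.54). C3, the central complement protein, was at 15.3, 16.6, 19.1 and 15.7 CPM on chow and 637 to 845 CPM (median 732) on adenine (log2 change 5.46 ± 0.17 SE, adjusted p = 1.89e-15). C4b rose from 4.25 ± 0.445 to 52.3 ± 5.24 CPM (log2 change 3.62 ± 0.14 SE, adjusted p = 1.76e-14). The 3 fibrinogen chains rose together. Fgb was at 1.53, 2.20, 1.68 and 2.64 CPM on chow and 24.4 to 44.3 CPM (median 32.6) on adenine (log2 change 4.03 ± 0.22 SE, adjusted p = 1.75e-12). Fgg rose from 9.08 ± 0.638 to 98.0 ± 13.3 CPM (log2 change 3.43 ± 0.13 SE, adjusted p = 2.61e-14). Fga rose from 15.6 ± 1.08 to 84.2 ± 10.6 CPM (log2 change 2.43 ± 0.13 SE, adjusted p = 1.24e-12, picked after its values were seen). Cd55, which limits complement on cell surfaces, fell from 10.5 ± 1.27 to 1.87 ± 0.309 CPM (log2 change -2.48 ± 0.12 SE, adjusted p = 3.84e-13). Adipsin, Cfd, fell from 6.42 ± 3.57 to 0.0752 ± 0.0659 CPM (log2 change -6.30 ± 0.77 SE, adjusted p = 3.36e-07). The fat cell marker Adipoq fell in the same libraries from 0.973 ± 0.459 to 0.0387 ± 0.0490 CPM (log2 change -4.49 ± 0.67 SE, adjusted p = 4.45e-06, and -5.11 without adenine library 1). Of 8 adipocyte genes tested, 5 were lower and 3 higher, and the part of fat tissue in Cfd was not tested.

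**Figure D4:**
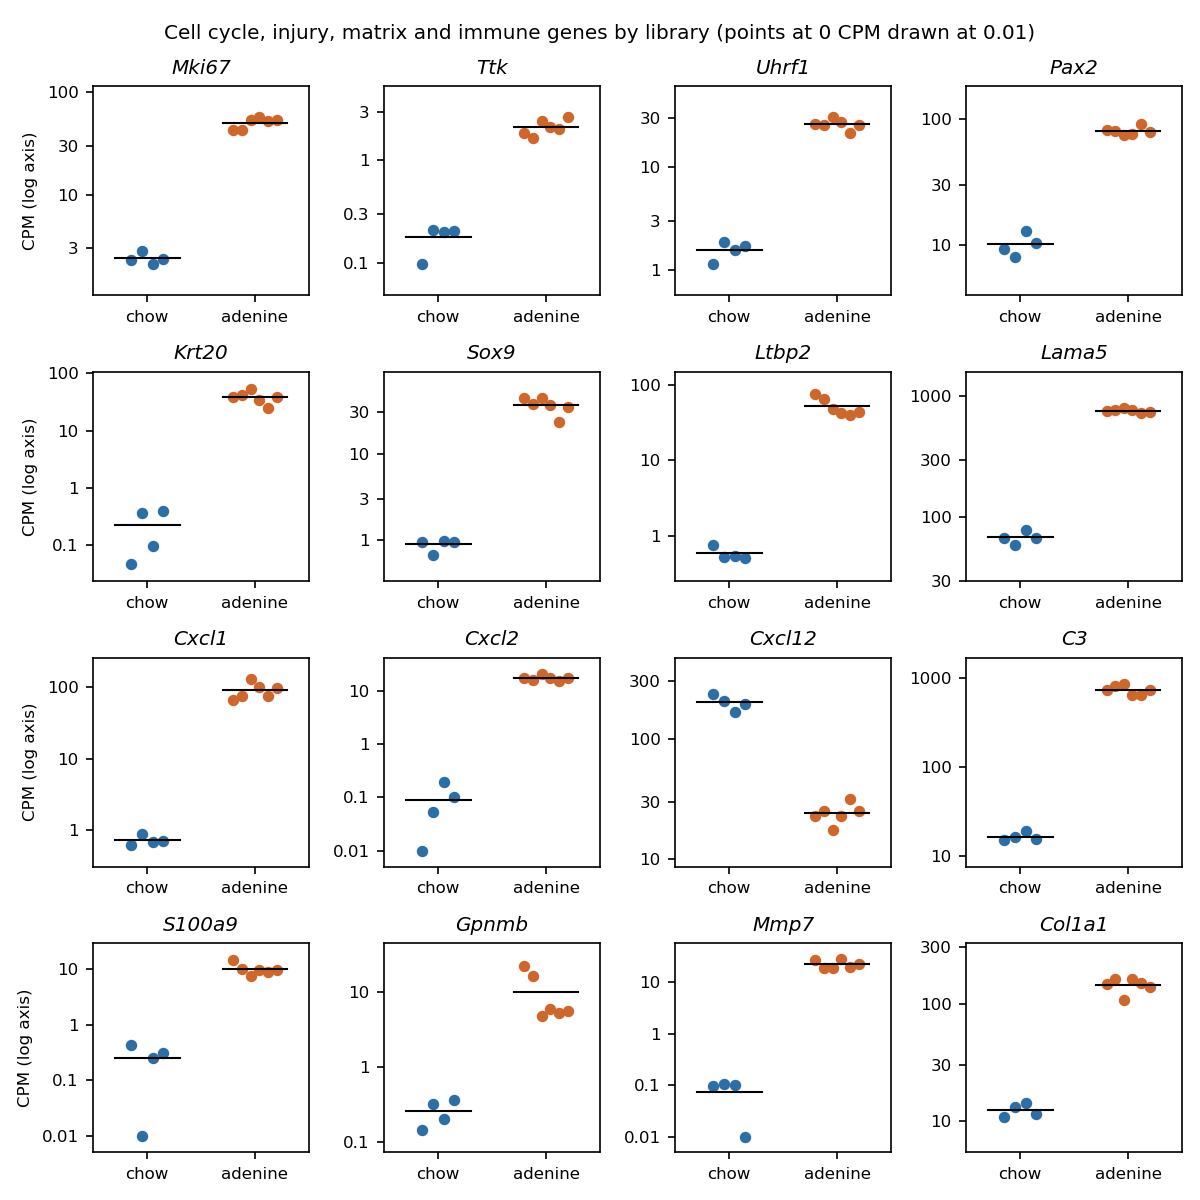
Level in CPM (log axes) of 16 cell cycle, injury, matrix and immune genes, 1 point a library with the group mean as a line, in 4 chow (blue) and 6 adenine (orange) libraries. The adenine libraries lie above chow in every panel except Cxcl12, where they lie below.

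Matrix genes rose in part. Of 16 fibrillar matrix genes, 9 were higher and 3 lower (median 0.47), or 12 and 0 under total-read scaling. Of all genes, 44.0% were higher and 40.9% lower. Col3a1 was at 47.4, 41.7, 50.01 and 48.8 CPM on chow and 139 to 229 CPM (median 198) on adenine (log2 change 2.06 ± 0.14 SE, adjusted p = 3.76e-11). Tnc, tenascin C of healing tissue, rose from 12.2 ± 1.72 to 41.2 ± 5.68 CPM (log2 change 1.76 ± 0.14 SE, adjusted p = 8.24e-10). The small proteoglycans of resting stroma were lower, Dcn from 69.0 ± 3.39 to 37.4 ± 5.39 CPM (log2 change -0.88 ± 0.10 SE, adjusted p = 1.62e-07) and Bgn from 189 ± 9.10 to 127 ± 10.04 CPM (log2 change -0.57 ± 0.06 SE, adjusted p = 8.64e-08). Under total-read scaling neither was lower by the test (log2 change -0.23 and 0.07). Basement membrane genes were higher in 11 of 18 and lower in 3 (median 0.81). Lama5, the laminin chain of mature tubule and glomerular membranes, was at 67.1, 59.6, 78.3 and 67.9 CPM on chow and 734 to 799 CPM (median 764) on adenine (log2 change 3.48 ± 0.08 SE, adjusted p = 9.99e-17). Agrn, agrin, was at 101, 94.7, 108 and 95.6 CPM on chow and 777 to 927 CPM (median 873) on adenine (log2 change 3.12 ± 0.09 SE, adjusted p = 5.87e-16). Both rose without overlap, by 2.24 and 2.47 with a transcript-length offset, while Nid1, which links laminin to collagen, fell from 52.2 ± 3.76 to 25.1 ± 0.797 CPM (log2 change -1.06 ± 0.05 SE, adjusted p = 9.24e-13). Among proteases and inhibitors, Mmp7, matrilysin, was at 0.0959, 0.105, 0.0989 and 0 CPM on chow and 18.2 to 28.0 CPM (median 20.8) on adenine (log2 change 8.11 ± 0.35 SE, adjusted p = 8.29e-14). Mmp12, the macrophage elastase, rose from 3.75 ± 0.224 to 46.2 ± 23.6 CPM (log2 change 3.63 ± 0.39 SE, adjusted p = 6.64e-08; 4.85 for protein-coding transcripts alone). Timp3, an inhibitor bound to matrix and the most abundant of the list on chow, was at 1846, 1915, 1778 and 1853 CPM on chow and 372 to 506 CPM (median 466) on adenine (log2 change -2.04 ± 0.11 SE, adjusted p = 3.16e-12).

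Of the clock genes, 9 of 18 were higher and 8 lower (median 0.10), near the 44.0% and 40.9% of all genes. Under total-read scaling 13 were higher and 1 lower. Per2 was at 24.8, 24.6, 31.6 and 26.9 CPM on chow and 69.3 to 104 CPM (median 97.4) on adenine (log2 change 1.76 ± 0.11 SE, adjusted p = 3.13e-11). Hlf, an output factor of the clock, was at 103, 103, 98.9 and 104 CPM on chow and 18.4 to 30.01 CPM (median 22.1) on adenine (log2 change -2.17 ± 0.17 SE, adjusted p = 4.40e-10). The labels give no hour of collection, so the time of day cannot be told apart from the diet in these genes. Glucocorticoid-responsive genes were divided, 5 higher and 7 lower of 14 (median -0.38, or 0.28 under total-read scaling). Of all genes, 44.0% were higher and 40.9% lower, so this division is not particular to the list. Sgk1 fell from 186 ± 9.72 to 45.5 ± 5.50 CPM (log2 change -2.04 ± 0.12 SE, adjusted p = 1.00e-11) and Klf9 from 597 ± 16.2 to 143 ± 3.01 CPM (log2 change -2.06 ± 0.08 SE, adjusted p = 1.47e-14). Cdkn1a rose from 10.3 ± 0.733 to 26.0 ± 3.52 CPM (log2 change 1.33 ± 0.12 SE, adjusted p = 3.24e-09).

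Few of the genes used to normalise other assays held still. Of 18 such genes, 14 were lower and 3 higher, or 8 and 7 under total-read scaling. Gapdh, of glycolysis, was at 3103, 3037, 2912 and 2973 CPM on chow and 884 to 1093 CPM (median 1049) on adenine (log2 change -1.56 ± 0.07 SE, adjusted p = 3.07e-13). Polr2a, a subunit of RNA polymerase, was at 29.1, 27.7, 39.4 and 34.2 CPM on chow and 88.7 to 102 CPM (median 94.7) on adenine (log2 change 1.55 ± 0.08 SE, adjusted p = 8.98e-13). Actb was at 1362, 1436, 1237 and 1298 CPM on chow and 1129.8 to 1273 CPM (median 1206) on adenine (log2 change -0.14 ± 0.06 SE, adjusted p = 0.0277), within 1.2-fold although it passed the test and its groups overlapped. Actb no longer passed without chow library 1, 2 or 4 or adenine library 2, 4 or 5, at -0.13 to -0.09 on the log2 scale. Its call was also lost in the fit of the 10 libraries alone (-0.14) and with the replicate block (-0.13). The same held with no mitochondrial genes (-0.12), no filter on low counts (-0.14) and a transcript-length offset (-0.12). Other abundant genes held within 1.2-fold included the RNA-binding proteins Hnrnpa2b1 (660.3 ± 11.04 to 631 ± 17.2 CPM) and Rbm39 (505 ± 24.7 to 520.4 ± 29.1 CPM). Of the 13 protein genes of the mitochondrial genome, 9 were lower and 2 higher, or 5 and 4 under total-read scaling. mt-Co3 fell from 34456 ± 1232 to 12881 ± 3274 CPM (log2 change -1.42 ± 0.15 SE, adjusted p = 4.81e-08). Conversely, mt-Nd6, the only protein gene on the other strand, rose from 182 ± 17.04 to 705 ± 352 CPM (log2 change 1.96 ± 0.30 SE, adjusted p = 6.90e-06). So did mt-Nd5 beside it (7369 ± 2059 to 17492 ± 4206 CPM, log2 change 1.25 ± 0.18 SE, adjusted p = 3.61e-06).

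By amount, the largest gains in TPM were Spp1, osteopontin, from 895 ± 62.1 to 16466 ± 3139 TPM, and Chd9, from 721 ± 15.9 to 13601 ± 2705 TPM, of which a noncoding transcript of 759 bases, Chd9-206, made up 99.2 ± 0.084% (SD, n = 4) on chow and 99.9 ± 0.022% (SD, n = 6) on adenine. Reads on the coding transcripts of Chd9 went from 31.7 ± 4.42 to 43.1 ± 1.53 CPM (log2 change 0.59). Tmsb10, a thymosin that binds actin, went from 188 ± 1.06 to 1566 ± 185 TPM, S100a11 from 273 ± 27.8 to 1634 ± 152 TPM and the chaperone clusterin, Clu, from 97.0 ± 3.40 to 987 ± 122 TPM. Kap, which androgens induce in tubule cells, lost most (22185 ± 2423 to 853 ± 384 TPM). It was followed by Gpx3, the secreted glutathione peroxidase of the proximal tubule (9732 ± 345 to 6135 ± 534 TPM), Klk1, tissue kallikrein (3339 ± 192 to 965 ± 208 TPM), Atp5b of the ATP synthase (2886 ± 359.9 to 601 ± 46.1 TPM), ferritin light chain Ftl1 (3774 ± 224 to 1534 ± 108 TPM) and Miox, the kidney enzyme that breaks down inositol (2609.6 ± 85.8 to 407 ± 134 TPM). A gain in TPM is not a change relative to the bulk of genes, whose median rose on that scale. Among the largest falls by ratio were Ugt3a1, a glycosyltransferase (281 ± 7.51 to 6.70 ± 1.84 CPM, log2 change -5.39 ± 0.19 SE, adjusted p = 6.49e-15; -3.36 with a transcript-length offset), Aadat, a transaminase of the kynurenine and lysine pathways (1124 ± 121 to 28.0 ± 17.6 CPM, log2 change -5.33 ± 0.31 SE, adjusted p = 7.53e-12), and Mep1b, meprin of the brush border (172 ± 6.79 to 4.74 ± 2.91 CPM, log2 change -5.17 ± 0.24 SE, adjusted p = 2.64e-13).

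The 6 adenine libraries fell in 2 sets on a minor component. On the second principal component adenine libraries 1 to 3 lay between 8.47 and 13.3 and libraries 4 to 6 between -15.8 and -6.10. Slc22a7 showed the same division, at 2.33, 2.65, 3.77, 11.1, 21.3 and 15.1 CPM in libraries 1 to 6. The ubiquitin ligase gene Rnf24 was at 12.1, 11.5, 15.5, 30.8, 73.7 and 41.4 CPM in the same order (SD of log2 CPM 1.08, log2 change -2.13 ± 0.36 SE, adjusted p = 1.98e-05). In Hpd, an enzyme of tyrosine breakdown, the 6 values were 1.24, 1.78, 1.26, 3.02, 8.11 and 4.83 CPM. Libraries 4 to 6 were thus higher than 1 to 3 in Slc22a7, and the labels name no batch that divides the group in this way. The component was computed from the most variable genes of these same libraries, so single variable genes are no separate evidence of 2 sets. Mitochondrial genes took 16.9 to 21.3% of reads in libraries 1 to 3 and 23.1 to 26.3% in 4 to 6. The 20 genes with most reads took 25.5 to 30.4% and 31.8 to 35.2%, and the part of either share was not tested.

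Transcript composition within genes changed as well. Retained-intron transcripts, annotated forms that keep an intron, made up 3.14% of all TPM on chow (3.04 to 3.32%) and 7.79% in the wild-type adenine libraries (6.95 to 8.55%), without overlap. They were at 6.66% in the knockout adenine libraries (6.42 to 6.88%) and at 3.77% in the IgG adenine libraries of the other experiment (3.25 to 4.13%). Protein-coding transcripts went from 76.2 ± 0.776% to 70.1 ± 1.22% of TPM. Of the 19923 retained-intron transcripts with a TPM above 0, 18648 (93.6%) had a higher mean TPM on adenine, against 77.1% of the 66585 other transcripts. Within a gene their median share moved from 8.77% to 19.5%, over 8422 genes, and it was larger on adenine in 89.4% of genes that were lower and in 72.8% of genes that were higher. The mean fragment lengths implied by the effective lengths overlapped between diets, 203 to 225 bases on chow and 205 to 241 on adenine. What moves this share, and its part in the gene-level values, was not tested. Counting protein-coding transcripts alone gave 6653 genes higher and 6281 lower of 15505 tested.

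Of 10445 genes with more than 1 transcript tested, 2429 (23.3%) changed their transcript shares, meaning an F test past 0.05 after adjustment and 1 transcript whose share of the gene's TPM moved by at least 20 percentage points without overlap. In 395 of these the leading transcript differed between every chow and every adenine library. The leading transcript was protein-coding on both diets in 121, on chow alone in 190 and on adenine alone in 40. Restricting the count to protein-coding transcripts gave 932 of 6652 genes (14.0%), 757 of them shared with the first count.

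Cmip, an adaptor protein described in T cells and podocytes, exchanged 1 coding form for another. Cmip-201, of 685 residues, held 86.5 ± 5.87% of the gene's TPM on chow and 2.44 ± 3.08% on adenine. Cmip-202, of 773 residues, starts 92106 bases upstream and shares the 3′ end, and went from 12.6 ± 5.73% to 86.9 ± 3.26% (adjusted p of the gene 4.42e-11). The gene's level fell from 65.3 ± 3.08 to 34.8 ± 2.18 CPM. In Sigirr, an inhibitory receptor of the interleukin-1 family, Sigirr-203 was at 78.2 ± 5.00% on chow and listed at 0 in all 6 adenine libraries, while Sigirr-201, which encodes the same number of residues (409), rose from 3.94 ± 2.16% to 31.0 ± 5.22% (adjusted p of the gene 3.69e-41). In Ugt3a1, the full-length Ugt3a1-201 of 523 residues fell from 95.6 ± 1.59% to 17.0 ± 8.84% and the short Ugt3a1-205, annotated with 43 residues, took 82.7 ± 8.97%. These shares are Salmon's division of reads between overlapping transcripts, and its uncertainty per transcript is not used here.

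**Figure D5:**
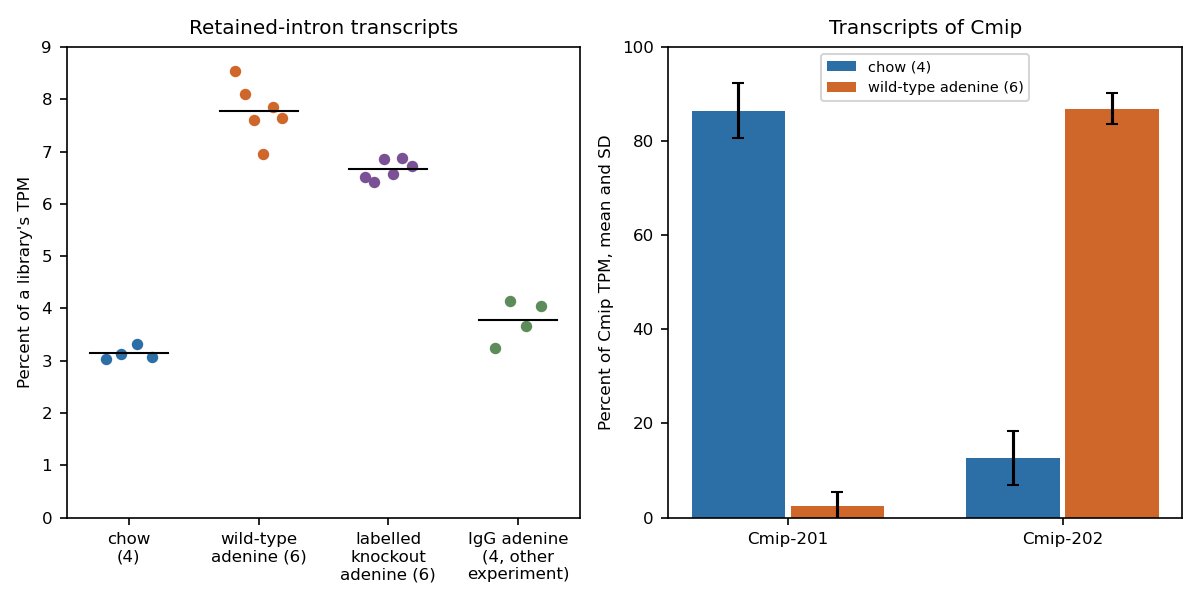
Left, retained-intron transcripts as a percent of each library's TPM, 1 point a library with the group mean as a line; right, mean share of Cmip TPM in percent with SD bars, in 4 chow and 6 adenine libraries. The wild-type adenine libraries lie at 6.95 to 8.55% against 3.04 to 3.32% on chow, and Cmip-201 and Cmip-202 exchange places.

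Enpp1, the ectonucleotidase gene that the study deletes in its knockout group, was at 54.2 ± 2.87 CPM on chow and 21.99 ± 1.52 CPM on adenine. In the libraries labelled ENPP1 knockout, Slc5a2 was at 459 ± 105 CPM, Slc22a7 at 41.1 ± 3.07 CPM, Mki67 at 44.2 ± 2.51 CPM, Krt20 at 25.0 ± 6.27 CPM and C3 at 469 ± 94.5 CPM. The wild-type adenine levels of these genes were 132 to 219 CPM, 2.33 to 21.3 CPM, 42.8 to 57.6 CPM, 25.4 to 53.5 CPM and 637 to 845 CPM. Slc5a2 was higher in the knockout than in the wild-type adenine libraries (log2 difference 1.35 ± 0.14 SE, adjusted p = 4.66e-07), and remained under its chow level in mean.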

How the data were processed

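Total kidney RNA of mice was sequenced, 1 library a mouse. Per the file headers and the submitters' processing notes, the authors quantified transcripts with Salmon and deposited, for each library, estimated counts of reads (expected counts, not whole) and TPM with each transcript's effective length. The notes also name FastQC, DESeq, DESeq2 and GRCm39, and the sources used here give no tool versions. No GRCm39 annotation was used here: of 116755 transcript identifiers 115636 were matched to GENCODE M21 (GRCm38) for gene names, and the 1119 others held 0.488 to 0.57% of reads.

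Expected counts were summed over 35413 genes and rounded. Genes kept by filterByExpr were scaled by TMM and fitted with edgeR 4.0.16 quasi-likelihood over the 16 chow, wild-type and knockout libraries, which share 1 estimate of spread. A call is a Benjamini-Hochberg adjusted p under 0.05 over all genes tested, and every adjusted p for a gene is from that test unless another is named. Transcript shares were compared per gene with a floor of 20 percentage points. The fits were also run on simulated data, and the outcome is not given here. Tools were R 4.3.3, limma 3.58.1, DESeq2 1.42.0, Python 3.11.15, pandas 2.3.3, scipy 1.17.1 and matplotlib 3.10.9. No 2 libraries of a group agreed within sampling noise. Promoters came from RefSeq (GRCm38.p6).

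The comparison and gene lists were chosen with earlier results of these data known. Named genes, of at least 5 CPM where a minimum applied, were the largest rises and falls, the largest gains and losses in TPM, the leading, opposing and nearest uncalled members of each list, the most variable genes among the adenine mice, the most abundant genes held within 1.2-fold, and the largest transcript exchanges. Enpp1 was also named. Alternatives were other scalings, filters, tools, sample sets, transcripts and a replicate block. The antibody-treated libraries were not analysed here, and the control IgG libraries served only for Y-linked reads and the share of retained-intron transcripts. Some genes are not reported here.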

Additional observations from a re-analysis of the deposited data

Results flagged for a closer look

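In each gene named here, the highest or lowest library of a diet group was set against the spread of that group by Dixon's gap test on log2 CPM. Over 418 groups, 2 for each gene, 28 values stood apart, and chance gives about 1 in 20 groups. Chow replicate 3 gave 8 of them. Those of Cxcl5, Fosl1 and Sprr2f on chow are differences of 1 read and those of Mmp7 and Ttk of 2 reads.

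In chow replicate 1, Ltbp2 was at 0.7674 CPM and the others at 0.5068 to 0.5441, Mep1b was at 182.2 CPM and the others at 168.1 to 169.5, Ttk was at 0.0959 CPM and the others at 0.1979 to 0.2096. In the same chow library, mt-Co3 was at 36290 CPM and the others at 33630 to 34000. In chow replicate 2, Cxcl5 was at 0 CPM and the others at 0.048 to 0.0507, Fosl1 was at 0 CPM and the others at 0.048 to 0.0507, Sox9 was at 0.6811 CPM and the others at 0.9592 to 0.9894. In the same chow library, Sprr2f was at 0.0524 CPM and the others at 0. In chow replicate 3, Haao was at 212.9 CPM and the others at 223.7 to 225.9, Herpud1 was at 320.0 CPM and the others at 359.1 to 363.8, Hnf4a was at 579.7 CPM and the others at 612.9 to 618.1. In the same chow library, Mut was at 130.1 CPM and the others at 158 to 161.1, Nos1 was at 1.088 CPM and the others at 0.8907 to 0.9122, Oas2 was at 6.579 CPM and the others at 3.598 to 3.877. In the same chow library, S100a8 was at 0.4947 CPM and the others at 0.048 to 0.0524, mt-Nd6 was at 207.1 CPM and the others at 170.5 to 174.8. In chow replicate 4, Enpp1 was at 49.87 CPM and the others at 55.38 to 55.83, Mmp7 was at 0 CPM and the others at 0.0959 to 0.1048, Upk1b was at 4.713 CPM and the others at 3.837 to 3.929.

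In adenine replicate 1, Aqp4 was at 2.44 CPM and the others at 0.0363 to 0.1657, Mdh2 was at 79.76 CPM and the others at 88.84 to 92.75, S100a8 was at 9.872 CPM and the others at 4.395 to 5.851. In adenine replicate 2, Atp5b was at 343.6 CPM and the others at 309.3 to 318.2. In adenine replicate 3, Foxm1 was at 15.33 CPM and the others at 11.48 to 12.63, Hmox1 was at 21.53 CPM and the others at 18.35 to 18.68, Nlrc5 was at 30.54 CPM and the others at 25.41 to 26.77. In the same adenine library, Rhbg was at 17.84 CPM and the others at 21.58 to 23.41, Trpv5 was at 57.72 CPM and the others at 38.48 to 44.71.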

How the results depend on the processing

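Main choices were changed 1 at a time. Leaving out each library in turn gave 7348 to 7569 genes higher, 6695 to 6914 lower, 3885 to 4264 higher and 2953 to 3160 lower by at least 2-fold, 924 to 1069 held within 1.2-fold and 2327 to 2716 with changed transcript shares. DESeq2, limma voom, the 10 libraries alone, RLE and upper-quartile scaling, no mitochondrial genes and a transcript-length offset kept every gene count within 1.5 times. Upper-quartile scaling moved the median gene by 0.226 on the log2 scale and the upward share of calls to 60.3%. With no filter on low counts 2064 genes were held within 1.2-fold, since more genes were tested.

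Total-read scaling and protein-coding transcripts alone were added after the data were seen. Total-read scaling gave 3688 genes lower, 6963 higher and 1387 lower by at least 2-fold. Transcript shares were called in 4702 genes with a move of 10 percentage points, in 914 with 30, and in 932 on protein-coding transcripts alone, by construction a smaller test.

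Replicate numbers did not pair the diets: deviations of same-numbered libraries correlated at 0.02, 0.07, -0.01 and -0.04. With the replicate block, 7285 genes were higher, 6815 lower, 3919 and 3086 by at least 2-fold, 964 held within 1.2-fold and 2185 changed transcript shares.

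Some named genes changed sign. Their log2 changes were Csf1r -0.0047 with DESeq2, then Csf1r -0.0047 under RLE scaling, then Actb 0.0009, Cyp7b1 0.0297, Egfr 0.0304, Hmox1 0.0289, Hsd11b2 0.0601, Xdh -0.37 on protein-coding transcripts alone, then Csf1r -0.0241 with the replicate block, then Actb 0.51, Bgn 0.0750, Chac1 0.18, Cxcl9 0.35, Cyp7b1 0.53, Egfr 0.53, Foxi1 0.48, Hmox1 0.53, Hnrnpa2b1 0.58, Hsd11b2 0.56, Prom1 0.14, Rfc4 0.37 under total-read scaling, then Csf1r -0.0914, Hnrnpa2b1 0.0078, Synpo -0.19 with the length offset, then Actb 0.0844, Cyp7b1 0.10, Egfr 0.11, Foxi1 0.0491, Hmox1 0.11, Hnrnpa2b1 0.16, Hsd11b2 0.14 under upper-quartile scaling. Leaving out libraries moved Csf1r from -0.0132 to 0.0773. The cause was not tested.

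Genes under about 1 CPM have wide intervals at this depth, and intervals for genes with few chow reads cover counting error only.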

Other observations

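Red blood cell transcripts were low in the adenine kidneys. Of 7 genes of that list tested, 6 were lower and 1 higher, and the list's summed level was 1125 to 1366 CPM on chow and 24.9 to 52.7 CPM on adenine. Hbb-bs, a beta globin, was at 534, 488, 390.2 and 463 CPM on chow and 5.29 to 13.1 CPM (median 8.84) on adenine (log2 change -5.75 ± 0.26 SE, adjusted p = 1.49e-13). Alas2, the erythroid enzyme of haem synthesis, fell from 10.2 ± 1.27 (SD, n = 4) to 0.196 ± 0.124 CPM (SD, n = 6; log2 change -5.65 ± 0.31 SE, adjusted p = 2.72e-12). Epb42, a protein of the red cell membrane skeleton, was the 1 member that rose, from 1.70 ± 0.452 to 5.40 ± 0.529 CPM (log2 change 1.66 ± 0.16 SE, adjusted p = 9.57e-09). In every adenine library Hbb-bs and Alas2 lay below every chow library. The blood left in each kidney is not given in the labels, and its part in these values was not tested.

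Of 3 adrenal gland genes tested, Star, the cholesterol carrier of steroid synthesis, rose from 2.19 ± 0.258 to 4.11 ± 0.417 CPM and Akr1b7 fell from 5.12 ± 1.14 to 2.00 ± 0.243 CPM, both under adjusted p 0.05 in edgeR's test.

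Of 587 processed pseudogenes tested, 333 were higher (56.7%) and 93 lower (15.8%), where 6896 and 6778 of 15978 protein-coding genes were. How Salmon divides reads between a pseudogene and its parent gene was not tested.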
